A study of Mus musculus with 292 samples.

Results

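Liver RNA was compared between ZT12 and ZT15, that is, between the end of the light phase and a time 3 h into darkness, when mice usually begin to feed. ZT is zeitgeber time, by convention the hours since lights-on, so that ZT12 is lights-off. The libraries were chosen by tissue and ZT alone: 12 at ZT12 and 6 at ZT15, which makes 18 of the 77 liver libraries and of the 292 libraries in all. Every library came from a wild-type C57BL/6J male mouse aged 26 weeks, with no treatment named, and each from a mouse of its own. The ZT12 group holds 6 mice taken 12 h and 6 taken 36 h into the sampling, and the ZT15 group 6 mice taken at 15 h, all in the first cycle. The study measured messenger RNA by sequencing every 3 h over 36 h in 4 tissues, and the cortex of the same 18 mice is used here as the comparison tissue. Food intake of the mice was not analysed here.

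Nearly every cell carries a clock in which CLOCK and BMAL1 (the product of Arntl) switch on the Per and Cry genes, whose proteins then block them. A second loop runs through the REV-ERB repressors (Nr1d1 and Nr1d2), which hold down Arntl and Clock. In the liver, feeding and body temperature act beside this clock: insulin after a meal turns down glucose production and turns up the handling of glucose, sterols and fatty acids, warmth and new protein synthesis call up chaperones, and fasting calls up autophagy and fat burning.

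Values are given as CPM, a gene's count scaled by the library's total count, which ran from 28611778 to 41861697 counts at ZT12 and from 27491411 to 36239664 counts at ZT15. The 8 hepatocyte markers, albumin among them, made up 107715 to 133469 CPM at ZT12 and 107009.7 to 125522 CPM at ZT15, and none of them differed by the test. One library stood apart: in ZT15 replicate 3 the gene model Gm42418, which covers ribosomal RNA sequence, took 4.44% of the counts, against 0.661 to 1.95% in the other 17. With ZT12 replicates 4 and 6 it also stood apart along the second principal component of the log values. Leaving these 3 libraries out moved the count of differing genes from 4142 to 4818.

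Of 15085 genes tested, 4142 differed between ZT15 and ZT12 at an adjusted p under 0.05 (27.5%), by the quasi-likelihood test of edgeR with Benjamini-Hochberg adjustment over all genes. Of these 2120 were higher at ZT15 (14.1% of those tested) and 2022 lower (13.4%), and 1170 changed by 1.5-fold or more. The median log2 fold change over all genes tested was 0.01. For 374 genes all 6 ZT15 libraries lay above all 12 ZT12 libraries (2.48%), and for 495 all 6 lay below (3.28%). The lists of chaperones in the cytosol and in the endoplasmic reticulum (ER) had the largest shares of higher members among 24 lists. Autophagy (8 of 23) and interferon-stimulated genes (4 of 18) had members called in the lower direction only, beside 13.4% lower over all genes. In the list of cold-inducible genes and CLK kinases 2 of 5 members were called, both lower. Cirbp was among them, and the cold-inducible Rbm3 was not called.

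**Figure D1:**
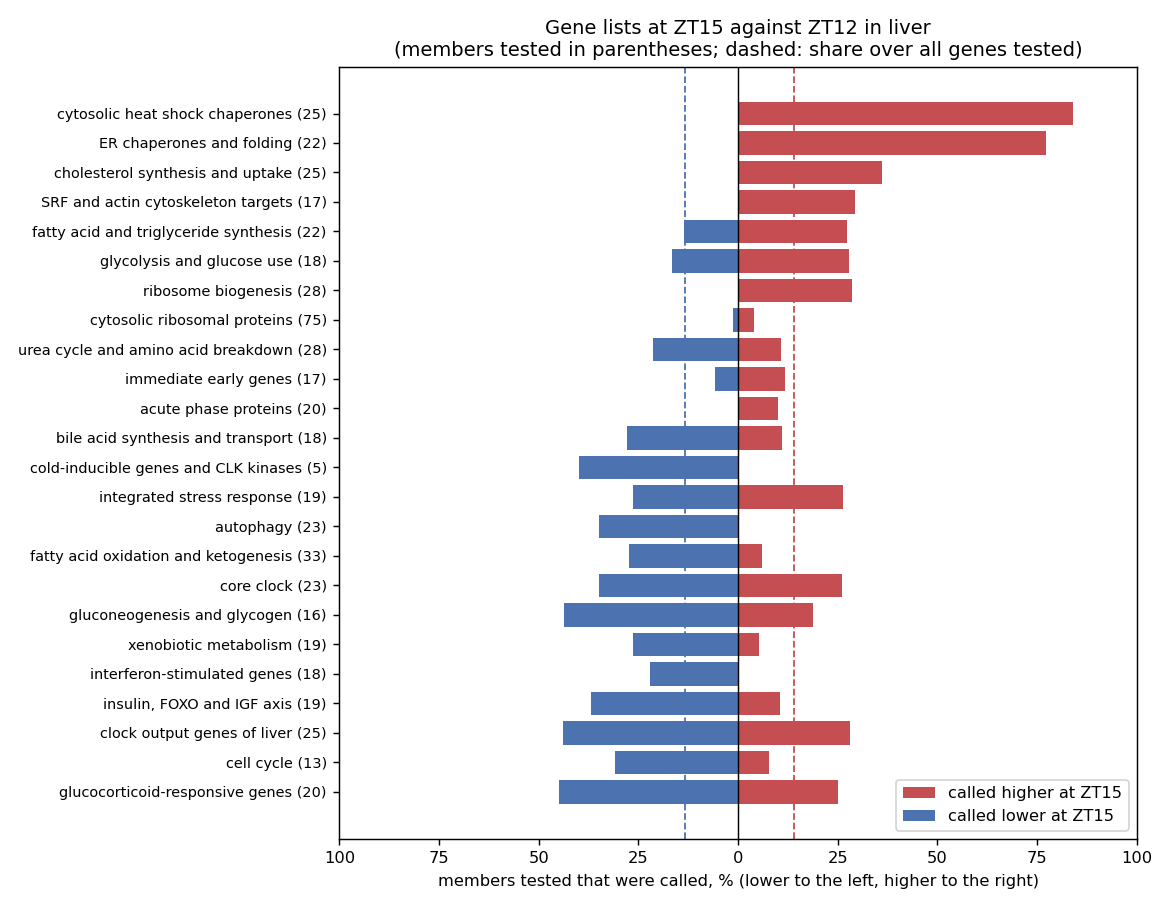
Share of each list's tested members called higher (red, to the right) or lower (blue, to the left) at ZT15 against ZT12, in percent, with the number of members tested in parentheses and lists ordered by their median log2 fold change. The dashed lines mark 14.1% and 13.4%, the shares over all genes tested. 21 of 25 cytosolic and 17 of 22 ER chaperones lie to the right, with none to the left.

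The core clock moved in both directions within these 3 h. Of 23 members tested, 6 rose (among them Arntl, Clock, Cry1, Per2 and Nfil3), 8 fell (Dbp, Nr1d1, Ciart, Nr1d2, Per1, Bhlhe41, Tef and Per3) and 9 were not called, against 27.5% called over all genes, with a median log2 fold change of -0.16. Arntl, the gene of BMAL1, ran from 0.668 to 3.44 CPM at ZT12 (median 1.49) and from 8.91 to 19.3 CPM at ZT15 (median 14.5). The groups were far apart, and the rise was 9.17-fold (log2 3.20 ± 0.23 SE, adjusted p = 4.86e-09). Its partner Clock ran from 17.2 to 29 CPM at ZT12 (median 19.9) and from 35.5 to 48 CPM at ZT15 (median 46.8), a rise of 1.12 ± 0.09 on the log2 scale (adjusted p = 1.33e-08). Npas2, which can stand in for Clock, was at 0 to 0.187 CPM and was not tested.

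Among the repressors that feed back on CLOCK and BMAL1, the members parted. Per2 rose from 44.6 to 72.9 CPM at ZT12 (median 63.3) to 91.8 to 145 CPM at ZT15 (median 114), with no overlap (log2 0.93 ± 0.09, adjusted p = 2.79e-07). Cry1 rose from 11 to 24.4 CPM (median 14.9) to 28.2 to 44.3 CPM (median 36), also with no overlap (log2 1.20 ± 0.14, adjusted p = 2.46e-06). Per1 went the other way, from 44.4 to 74.1 CPM (median 59.8) to 13.5 to 49 CPM (median 33.5), with log2 -0.80 ± 0.19 (adjusted p = 0.00282) and groups that touch. Per3 fell by 0.47 ± 0.09 on the log2 scale (adjusted p = 3.85e-04), a call that was lost when all 77 liver libraries shared 1 fit (adjusted p = 0.0783). Cry2 had a median of 51.9 CPM at ZT12 and 50.3 CPM at ZT15 and was not called (adjusted p = 0.348).

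The REV-ERB genes both fell. Nr1d1 ran from 24.8 to 55.2 CPM at ZT12 (median 34.6) and from 7.9 to 20.2 CPM at ZT15 (median 11.5), a fall of 1.42 ± 0.20 on the log2 scale (adjusted p = 1.52e-05). Nr1d2 went from a median of 112 CPM to 53 CPM (log2 -1.03 ± 0.11, adjusted p = 6.70e-07). In both the groups were apart. Rora, an activator at the sites that REV-ERB proteins bind, was not called (log2 -0.16 ± 0.12). Of the Nr1d1 model's exonic bases 8.55% are shared with other annotated genes, and for Bhlhe41 it is 19%.

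The PAR-bZIP factors, which carry the clock's output to metabolic genes, and their antagonist Nfil3 moved apart. Dbp ran from 59.6 to 125 CPM at ZT12 (median 108) and from 9.73 to 25.2 CPM at ZT15 (median 17.9), the largest fall of the clock list (log2 -2.55 ± 0.20, adjusted p = 1.31e-08). Dbp shares 18% of its exonic bases with a neighbouring gene. Tef fell less, by 0.61 ± 0.06 on the log2 scale (adjusted p = 1.54e-07), from a median of 302 to 189 CPM, and Hlf stood at 78 and 77.1 CPM. Nfil3 rose by 0.81 ± 0.13 on the log2 scale (adjusted p = 8.17e-05). Ciart, a repressor of CLOCK and BMAL1, fell from a median of 36.7 CPM to 12.5 CPM (log2 -1.39 ± 0.20, adjusted p = 1.98e-05).

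**Figure D2:**
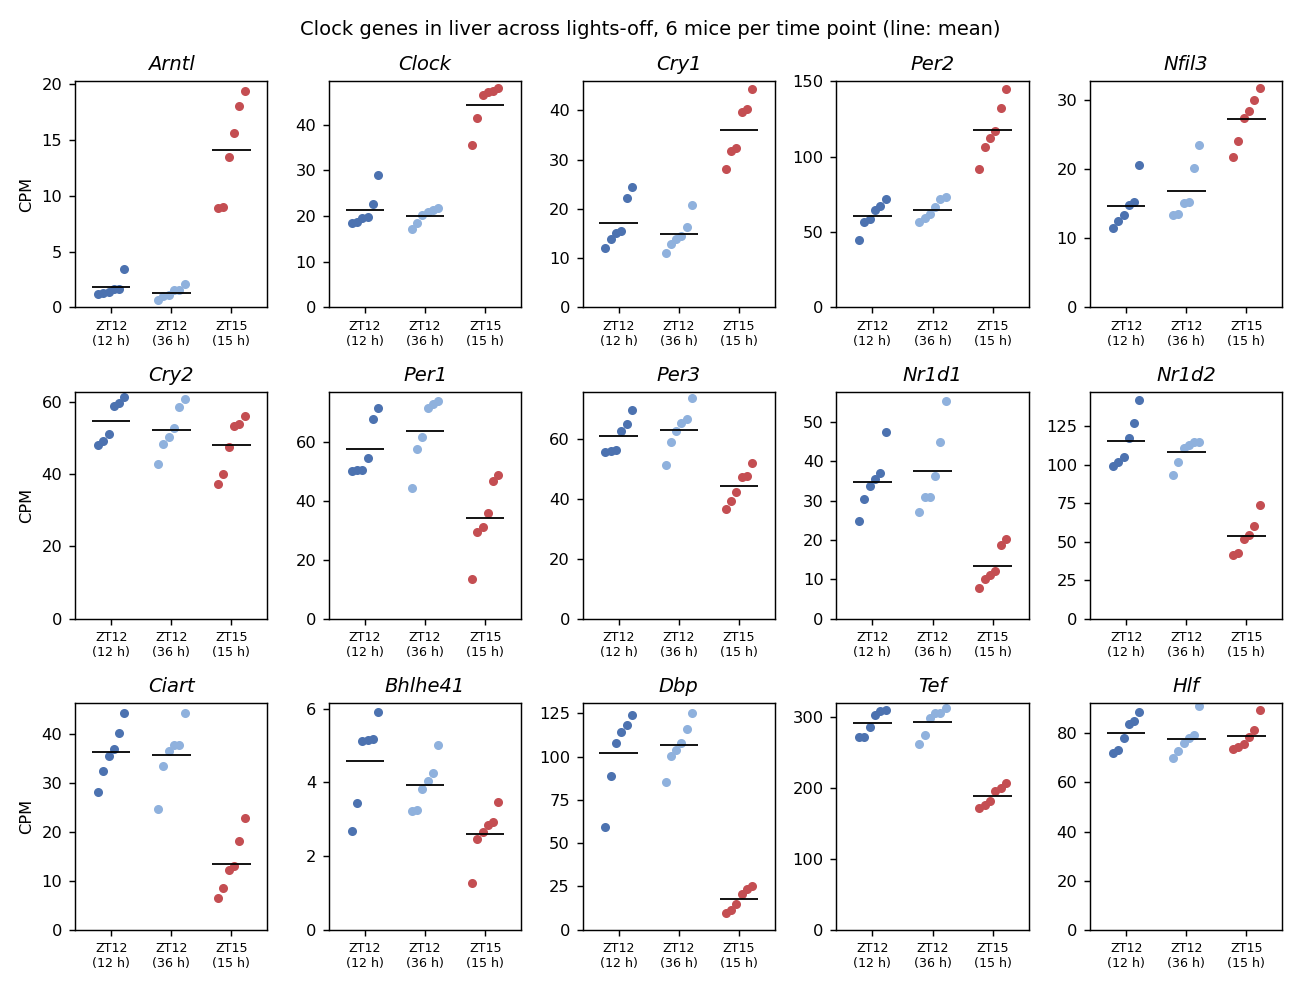
CPM of 15 clock genes in each liver library, one point per mouse, with the mean as a line: 6 mice at 12 h and 6 at 36 h (both ZT12, blue) and 6 at 15 h (ZT15, red), each axis starting at 0. Arntl lies between 8.91 and 19.3 CPM in the ZT15 mice and at most at 3.44 CPM in the ZT12 mice, while Hlf overlaps fully.

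The short site that REV-ERB receptors bind, AGGTCA on either strand, was searched in the 300 bases around the starts of genes (250 before and 50 after) in the RefSeq promoter table on GRCm38.p6. It stood in 13.1% of 13528 promoters of the genes tested. Among the clock genes that rose, 4 had entries (7 promoters), and Arntl, Clock and Nfil3 held it (3 promoters). All 8 that fell had entries (10 promoters), and Nr1d2 and Per1 held it (2 promoters). The match before Clock lies 119 bases upstream of the start and is printed as an example (chr5:76303591-76303646, minus strand). Whether REV-ERB proteins bind there in these livers was not tested. The capitals mark this site, here read on its reverse strand.
Clock: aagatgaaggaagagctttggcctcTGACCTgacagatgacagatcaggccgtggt
The E-box CACGTG, the site of CLOCK and BMAL1, stood in 9.65% of promoters. Among the 8 clock genes that fell, 4 held it (Bhlhe41, Ciart, Per1 and Tef), in 5 of 10 promoters. Among the 4 that rose and had entries, 1 held it (Cry1), in 1 of 7 promoters. The D-box TTATGTAA stood in 0.577% of promoters and among the called clock genes in that of Per3.

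Genes under clock control in liver moved both ways. Of 25 members of that list, 7 were called higher (28%, beside 14.1% over all genes) and 11 lower (44%, beside 13.4%), with a median log2 fold change of -0.30. Rgs16, a brake on G protein signalling, fell furthest in this list: from 21.1 to 172 CPM (median 77.4) to 2.51 to 16 CPM (median 7.4), log2 -3.30 ± 0.50 (adjusted p = 4.74e-05). Its ZT12 mice were spread widely, yet none came down to the level of a ZT15 mouse. Upp2, which splits uridine, fell from a median of 854 CPM to 356 CPM (log2 -1.28 ± 0.11, adjusted p = 2.75e-08), and Coq10b, a helper of the respiratory chain, from 80.4 to 39.5 CPM (log2 -1.02 ± 0.10, adjusted p = 1.43e-07). Against this, Dtx4 rose from a median of 3.18 to 12.2 CPM (log2 1.83 ± 0.14, adjusted p = 1.31e-08) and the vasopressin receptor Avpr1a from 8.35 to 21.7 CPM (log2 1.35 ± 0.13, adjusted p = 2.09e-07).

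Most chaperones of the cytosol rose. Of 25 members tested, 21 were called higher and none lower, against 14.1% called higher over all genes. Their median log2 fold change was 0.80, beside 0.01 over all genes. In 14 members the 6 ZT15 libraries lay above all 12 at ZT12 (2.48% over all genes). Without the 3 libraries that stood apart, 23 were called higher. The inducible HSP70 gene Hspa1b ran from 2.52 to 5.66 CPM at ZT12 (median 3.77) and from 11.8 to 32.1 CPM at ZT15 (median 27.8), a 6.07-fold rise (log2 2.60 ± 0.20, adjusted p = 1.47e-08). In ZT15 replicates 2 and 6 it was at 11.8 and 12.6 CPM, and in the other 4 between 26.1 and 32.1 CPM. Its near-identical neighbour Hspa1a was counted at a median of 0.374 and 1.24 CPM, and how reads were split between the pair is uncertain.

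The rise extended to chaperones that every cell keeps at high levels. Hspa8, the constant HSC70, ran from 184 to 277 CPM at ZT12 (median 215) and from 452 to 638 CPM at ZT15 (median 483), log2 1.25 ± 0.08 (adjusted p = 2.09e-09). Hsp90aa1, the inducible HSP90, went from a median of 25.2 to 91.9 CPM (log2 1.85 ± 0.14, adjusted p = 1.17e-08), and its constant partner Hsp90ab1 from 671 to 1045 CPM (log2 0.80 ± 0.08, adjusted p = 2.08e-07). Per length, Hsp90ab1 stood highest of these at ZT15 with 383 ± 72.4 FPKM (SD, n = 6), ahead of Hspa8 with 125 ± 19 and Hsp90aa1 with 24.8 ± 6.41. The co-chaperones Stip1 (log2 1.05 ± 0.08, adjusted p = 1.31e-08) and Fkbp4 (log2 0.93 ± 0.07, adjusted p = 8.89e-09), which hand clients to HSP90, also rose with no overlap.

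The small heat shock protein Hspb1 went from a median of 3.64 CPM to 13.1 CPM (log2 1.90 ± 0.19, adjusted p = 3.94e-07), and a processed copy of it, Hsp25-ps1, was counted alongside it (log2 1.98 ± 0.20). By position 69.2% of the copy's exonic bases overlap another annotated gene, which is not a measure of sequence likeness. Reads from the pair may be exchanged, which was not tested. The 4 members that were not called were Hsf1 and Hsf2, the factors that drive heat shock genes, the mitochondrial chaperonin Hspd1 and the co-chaperone St13. Hsf1 was at a median of 15.4 CPM at ZT12 and 17 CPM at ZT15 (log2 0.08 ± 0.07, adjusted p = 0.421).

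The core of the heat shock element, GAANNTTC on either strand, stood in 5.82% of promoters of the genes tested. It stood in 11 of the 23 promoters found for called members of the cytosolic chaperone list, which belong to 10 of 18 genes: Bag3, Chordc1, Dnaja1, Fkbp4, Hspa1a, Hspa1b, Hspb1, Hspb8, Hspe1 and Hsph1. Hspe1, the partner of Hspd1, is mitochondrial and is counted here by its place in the list. The stretches before Hspa1b (chr17:34959310-34959367, minus strand, match 104 bases upstream) and Hspb1 (chr5:135887777-135887854, plus strand, matches 117 and 97 bases upstream) are shown because Hspa1b rose furthest of the list and Hspb1 holds a pair of matches. Capitals mark the fixed letters of the element.
Hspa1b: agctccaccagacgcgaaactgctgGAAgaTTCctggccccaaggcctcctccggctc
Hspb1: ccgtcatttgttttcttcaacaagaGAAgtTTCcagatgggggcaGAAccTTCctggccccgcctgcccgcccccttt

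Chaperones and folding enzymes of the ER rose beside them. Of 22 members, 17 were called higher (77.3%, beside 14.1% over all genes) and none lower, with a median log2 fold change of 0.59. In 12 the 6 ZT15 libraries lay above all 12 at ZT12 (2.48% over all genes). Without the 3 libraries that stood apart, 17 were called higher. Hspa5, the HSP70 of the ER known as BiP, ran from 426 to 673 CPM at ZT12 (median 585) and from 1043 to 2216 CPM at ZT15 (median 1203), log2 1.32 ± 0.13 (adjusted p = 2.15e-07). Sdf2l1 went from 5 to 10.6 CPM (median 8.61) to 18.1 to 65.4 CPM (median 33.5), log2 2.16 ± 0.20 (adjusted p = 1.43e-07). Creld2 went from 14.9 to 31.8 CPM (median 21.5) to 47.1 to 142 CPM (median 78.2), log2 2.04 ± 0.19 (adjusted p = 1.43e-07). Both encode helpers of folding in the ER lumen. The ZT15 mice were spread widely in all 3 genes, with replicate 1 highest and replicate 6 lowest in each.

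Further members rose. The disulfide isomerase Pdia4 rose by 1.14 ± 0.11 on the log2 scale (adjusted p = 2.79e-07), the nucleotide exchange factor Hyou1 by 1.33 ± 0.14 (adjusted p = 8.61e-07) and the ER resident Manf by 1.42 ± 0.16 (adjusted p = 1.31e-06). Syvn1, the ligase that marks misfolded ER proteins for breakdown, went from a median of 76.7 to 225 CPM (log2 1.53 ± 0.16, adjusted p = 5.94e-07). Xbp1 (log2 0.11 ± 0.15, adjusted p = 0.62), whose spliced product drives many of these genes, and Herpud1 (log2 -0.04 ± 0.15, adjusted p = 0.886) were not called, nor were Derl1, Derl2 and Derl3.

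The ER stress element, CCAAT and CCACG with 9 bases between them, on either strand, was searched for after the rise of this list was seen. It stood in 18 of the 13528 promoters (0.133%), and 8 of these belong to the 15 called ER members with a promoter in the table: Calr, Canx, Creld2, Dnajc3, Hsp90b1, Hspa5, Pdia6 and Syvn1. Hspa5 is shown by the element alone (chr2:34772025-34772043, plus strand, match 65 bases upstream), and Creld2 (chr15:88819495-88819563, plus strand, match 126 bases upstream) and Syvn1 (chr19:6046507-6046575, plus strand, match 44 bases upstream) with their surroundings, since they are among the list's largest rises. Capitals mark both parts of the element, which lies in reverse before Creld2.
Hspa5: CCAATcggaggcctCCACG
Creld2: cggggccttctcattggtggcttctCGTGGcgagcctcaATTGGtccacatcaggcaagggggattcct
Syvn1: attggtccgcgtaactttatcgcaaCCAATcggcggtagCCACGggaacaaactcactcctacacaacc

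**Figure D3:**
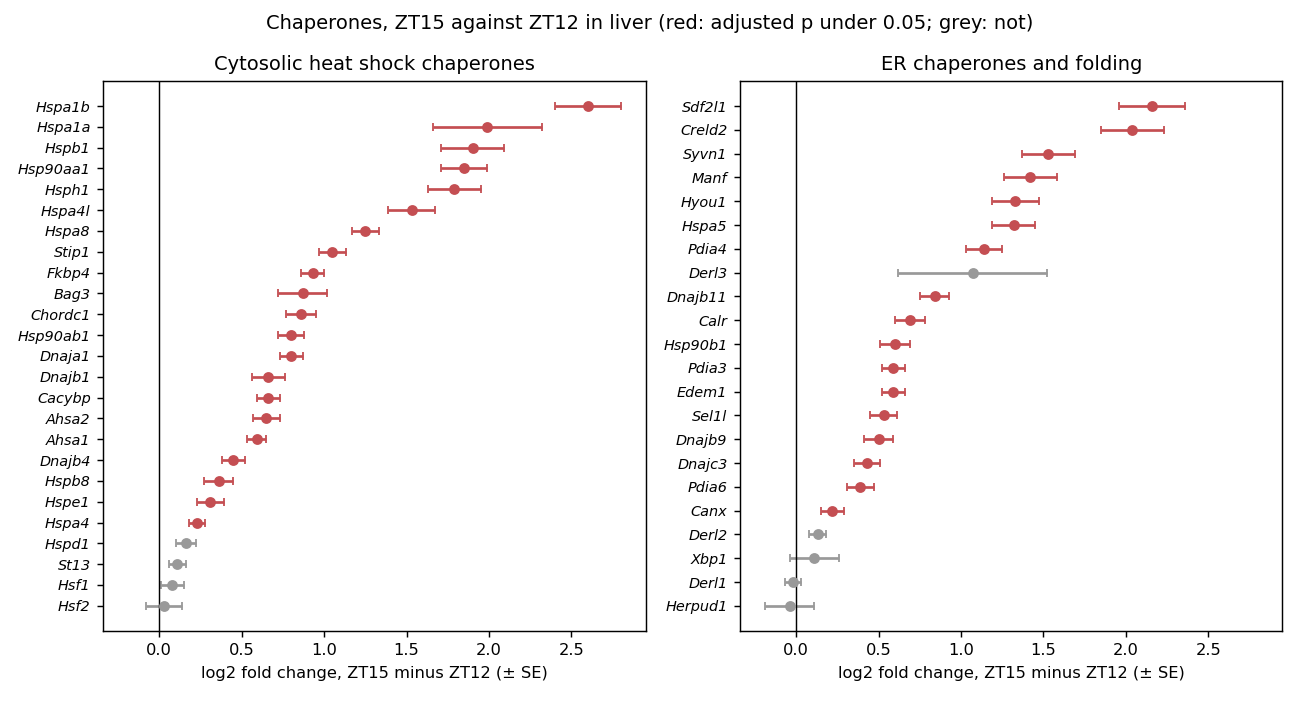
Log2 fold change from ZT12 to ZT15 with its standard error for each tested member of the cytosolic (left) and ER (right) chaperone lists, red where the adjusted p was under 0.05 and grey where it was not. All called members lie to the right of 0, up to 2.60 for Hspa1b and 2.16 for Sdf2l1.

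The integrated stress response, the arm of stress signalling that runs through ATF4, split. Of 19 members tested, 5 rose and 5 fell (52.6% called, beside 27.5% over all genes), with a median log2 fold change of -0.14. Ddit3, the gene of CHOP, rose from a median of 6.45 to 12.9 CPM (log2 0.99 ± 0.15, adjusted p = 5.72e-05) and Atf4 from 105 to 135 CPM (log2 0.35 ± 0.10, adjusted p = 0.01). Chac1, which breaks down glutathione, fell from a median of 3.31 to 1.07 CPM (log2 -1.96 ± 0.41, adjusted p = 0.00113), and the kinase-like Trib3 from 6 to 2.4 CPM (log2 -1.33 ± 0.29, adjusted p = 0.00161). Psph, of serine synthesis, rose by 0.51 ± 0.09 (adjusted p = 3.86e-04). With the ZT12 mice of the second cycle alone 2 members were called higher, and in the first cycle alone 2 were called lower.

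In the list of the insulin, FOXO and IGF axis more members fell than rose. Of 19 tested, 2 rose and 7 fell (47.4% called, beside 27.5% over all genes), with a median log2 fold change of -0.29. Foxo1 itself ran from 48.8 to 68.3 CPM at ZT12 (median 59.1) and from 33.1 to 43.1 CPM at ZT15 (median 38.1), log2 -0.61 ± 0.08 (adjusted p = 5.64e-06). Igfbp1, a secreted IGF binder that insulin holds down, ran from 10.9 to 57.1 CPM (median 24.3) and from 1.73 to 20 CPM (median 7.63), with groups that overlap (log2 -1.56 ± 0.42, adjusted p = 0.00832). Insr, the insulin receptor, fell slightly (log2 -0.28 ± 0.07, adjusted p = 0.00305) and Cited2 rose (log2 0.57 ± 0.13, adjusted p = 0.00205). With the ZT12 mice of the second cycle alone 4 members were called lower.

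Within gluconeogenesis and glycogen, 3 of 16 members rose and 7 fell (62.5% called, beside 27.5% over all genes, median log2 fold change -0.18). Pck1, the enzyme that commits carbon to glucose production, ran from 2808 to 4840.2 CPM at ZT12 (median 3770) and from 375 to 2378 CPM at ZT15 (median 1243), log2 -1.46 ± 0.29 (adjusted p = 6.30e-04). The 6 ZT15 mice were all below every ZT12 mouse but were far apart from each other. G6pc, the last step of glucose release, was not called: its medians were 433 and 234 CPM, with overlapping groups (log2 -0.60 ± 0.29, adjusted p = 0.136). The glycogen-targeting subunits of protein phosphatase 1 moved apart. Ppp1r3c rose from a median of 27.4 to 72.9 CPM (log2 1.57 ± 0.22, adjusted p = 1.51e-05) and Ppp1r3b from 321 to 694 CPM (log2 1.05 ± 0.22, adjusted p = 0.00139), while Ppp1r3g fell from 3.66 to 0.413 CPM (log2 -3.47 ± 0.56, adjusted p = 8.69e-05). Phka2, a subunit of the kinase that starts glycogen breakdown, fell by 0.68 ± 0.10 on the log2 scale (adjusted p = 5.32e-05).

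On the side of glucose use, 5 of 18 members rose and 3 fell (44.4% called, beside 27.5% over all genes). Pfkfb1 rose (log2 0.41 ± 0.08, adjusted p = 3.47e-04) while Pfkfb3, another enzyme that sets fructose 2,6-bisphosphate, fell (log2 -1.23 ± 0.31, adjusted p = 0.0051). Pdk4 and Pdk2, which both shut pyruvate out of the citric acid cycle, also moved oppositely: Pdk4 rose from a median of 3.42 to 9.63 CPM (log2 1.40 ± 0.20, adjusted p = 1.77e-05) and Pdk2 fell from 116 to 91.8 CPM (log2 -0.34 ± 0.06, adjusted p = 2.76e-04). Pklr, Gapdh and Ldha were not called.

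Of 25 members of cholesterol synthesis and uptake, 9 rose (36%, beside 14.1% called higher over all genes) and none fell. The median log2 fold change was 0.23. Insig1, a sterol-controlled gate on SREBP, ran from 207 to 344 CPM at ZT12 (median 265) and from 488 to 624 CPM at ZT15 (median 535), log2 1.04 ± 0.10 (adjusted p = 1.41e-07), with the groups apart. The synthetic enzymes Mvd (log2 1.38 ± 0.16, adjusted p = 2.35e-06) and Lss (log2 0.63 ± 0.11, adjusted p = 1.99e-04) rose as well. Hmgcs1, of the mevalonate pathway, was not called. Without ZT15 replicate 1, 5 or 6, 1 member was called lower.

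Fatty acid and triglyceride synthesis was mixed, with 6 of 22 members higher and 3 lower (median log2 fold change 0.18). That is 40.9% called, beside 27.5% over all genes. Fasn, fatty acid synthase, ran from 298 to 1192 CPM at ZT12 (median 536) and from 1009.7 to 1591 CPM at ZT15 (median 1136), log2 1.02 ± 0.21 (adjusted p = 0.00121). Thrsp, a lipogenic cofactor, rose by 0.88 ± 0.17 (adjusted p = 6.56e-04), Agpat2, of phosphatidic acid synthesis, by 0.70 ± 0.08 (adjusted p = 7.30e-07), and Elovl3, which lengthens fatty acids, by 1.81 ± 0.24 (adjusted p = 9.16e-06). Lpin1, the phosphatase that makes diacylglycerol, ran against them: from 304 to 922 CPM (median 451) to 50.5 to 185 CPM (median 119), log2 -2.07 ± 0.28 (adjusted p = 1.01e-05). Acaca, Scd1 and Dgat2 were not called. Without ZT15 replicate 3, 1 member in place of 3 was called lower.

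In bile acid synthesis and transport, 2 of 18 members rose and 5 fell (38.9% called, beside 27.5% over all genes). The canalicular pumps carried most of the falls. Abcg5 and Abcg8, which pair to form the sterol exporter, are neighbours in the genome and fell together: Abcg5 from a median of 124 to 65.6 CPM (log2 -0.89 ± 0.07, adjusted p = 2.94e-08) and Abcg8 from 114 to 48.1 CPM (log2 -1.23 ± 0.12, adjusted p = 1.77e-07). Abcb4, the phospholipid exporter, fell by 0.42 ± 0.05 on the log2 scale (adjusted p = 6.48e-06), while Baat, which conjugates bile acids, rose by 0.36 ± 0.06 (adjusted p = 1.41e-04). In all 4 the groups were apart. Cyp7a1, the rate-limiting enzyme of bile acid synthesis, was not called (medians 217 and 269 CPM, log2 0.23 ± 0.22, adjusted p = 0.487).

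Fatty acid oxidation and ketogenesis had 2 members higher and 9 lower of 33 (median log2 fold change -0.16). That is 33.3% called, near the 27.5% over all genes. By direction, 27.3% were lower (13.4% over all genes) and 6.06% higher (14.1% over all genes). Cpt1a, which lets fatty acids into mitochondria, ran from 448 to 554 CPM at ZT12 (median 495) and from 224 to 420.4 CPM at ZT15 (median 296), log2 -0.71 ± 0.09 (adjusted p = 5.11e-06). The ketone body enzyme Bdh1 (log2 -0.48 ± 0.08, adjusted p = 1.12e-04) and the thioesterase Acot3 (log2 -1.60 ± 0.31, adjusted p = 6.20e-04) fell too. Ppara was not called. Counts of lower members ranged from 5 with the second-cycle ZT12 mice alone to 14 without ZT15 replicate 2.

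Autophagy genes fell where they were called, 8 of 23 with none higher (median log2 fold change -0.15). That is 34.8% called lower, beside 13.4% over all genes. Gabarapl1, a membrane tag of the autophagosome, ran from 279.7 to 347 CPM at ZT12 (median 319.9) and from 147 to 182 CPM at ZT15 (median 167), log2 -0.91 ± 0.07 (adjusted p = 7.79e-09). Ulk1, the kinase that starts the process, went from a median of 97.8 to 48.2 CPM (log2 -0.97 ± 0.11, adjusted p = 1.23e-06), and Map1lc3b from 82.9 to 60.4 CPM (log2 -0.41 ± 0.06, adjusted p = 3.97e-05). Pik3c3, the lipid kinase of the pathway, fell by 0.39 ± 0.08 (adjusted p = 8.39e-04). Each of these 4 separated the groups completely.

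The urea cycle and amino acid list had 3 members higher and 6 lower of 28, or 32.1% called, near the 27.5% over all genes. By direction, 10.7% were higher (14.1% over all genes) and 21.4% lower (13.4% over all genes). Without ZT15 replicate 3, 5 were called higher, and with the second-cycle ZT12 mice alone 3 were called lower. Asl (log2 0.26 ± 0.06, adjusted p = 0.00359) and Nags (log2 0.36 ± 0.08, adjusted p = 0.00189) rose, while Sds, which deaminates serine (log2 -0.83 ± 0.16, adjusted p = 4.71e-04), and the transaminase Got1 (log2 -0.57 ± 0.13, adjusted p = 0.00164) fell. Of the Sds model's exonic bases 29.6% are shared with other genes. Xenobiotic metabolism had 1 member higher and 5 lower of 19, or 31.6% called, also near the 27.5% over all genes. Here 5.26% were higher and 26.3% lower, beside the same 14.1% and 13.4%. Por, which passes electrons to the P450 enzymes, fell from a median of 624 to 405 CPM (log2 -0.62 ± 0.06, adjusted p = 4.28e-07), Cyp2a5 by 0.50 ± 0.11 (adjusted p = 0.00144) and Ephx1 by 0.40 ± 0.09 (adjusted p = 0.0019), and Fmo5 rose by 0.47 ± 0.09 (adjusted p = 3.41e-04). Without ZT15 replicate 3, 8 members of this list were called lower, and without ZT12 replicate 4 or 6 or ZT15 replicate 5, 2 were called higher.

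Glucocorticoid-responsive genes had 5 members higher and 9 lower of 20 (70.0% called, beside 27.5% over all genes). The list's median log2 fold change was -0.43. Without ZT15 replicate 3, or with the ZT12 mice of either cycle alone, 3 were called higher, and with those of the second cycle alone 5 were called lower. Beside Lpin1 and Per1, the zinc finger factor Klf9 fell from a median of 73.5 to 45.2 CPM (log2 -0.74 ± 0.14, adjusted p = 5.68e-04) and the metallothionein Mt2 from 7.87 to 2.21 CPM (log2 -1.66 ± 0.46, adjusted p = 0.00951). Against them Cdkn1a, the cell cycle inhibitor p21, rose from 0.382 to 1.78 CPM (median 0.876) to 1.99 to 10.3 CPM (median 4.04), log2 2.41 ± 0.34 (adjusted p = 1.72e-05). Fkbp5 and Sgk1 were not called. In the cell cycle list, 4 of 13 members fell (30.8%, beside 13.4% over all genes), Ccne1 furthest (medians 3.29 and 0.873 CPM, log2 -1.89 ± 0.24, adjusted p = 7.39e-06). Gadd45g, a stress-induced growth arrest gene, fell by 1.67 ± 0.59 (adjusted p = 0.0399), Cdk1 by 0.53 ± 0.19 (adjusted p = 0.0393) and Wee1, a kinase that holds back mitosis, by 0.51 ± 0.08 (adjusted p = 1.11e-04). Without any 1 of ZT12 replicates 1 and 12 and ZT15 replicates 1, 2, 4 and 6, 2 members were called lower. Cdkn1a was the 1 member that rose.

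Ribosome biogenesis had 8 of 28 members higher (28.6%, beside 14.1% called higher over all genes) and none lower (13.4% over all genes). In either direction 28.6% were called, near the 27.5% over all genes. Mybbp1a (log2 0.58 ± 0.07, adjusted p = 3.44e-06) and Nop16 (log2 0.62 ± 0.08, adjusted p = 8.29e-06) came first. With the ZT12 mice of the second cycle alone 3 members were called higher. Without ZT15 replicate 1 or 5, 1 and 2 members were called lower. Of 75 cytosolic ribosomal protein genes 3 were called higher and 1 lower, or 5.33% against 27.5% over all genes, and none was called higher when scaled by the library total alone. Leaving out ZT12 replicate 1, 3 or 7 or ZT15 replicate 1, 3 or 5 left 1 called higher, and without ZT15 replicate 1 or 4 none was called lower. Of the actin genes, Actb, beta-actin, went from 269 to 386 CPM (median 286) to 357 to 692 CPM (median 519.8), log2 0.89 ± 0.10 (adjusted p = 1.05e-06), and Actg1 from a median of 6.49 to 21 CPM (log2 1.61 ± 0.22, adjusted p = 1.52e-05). Of 17 genes of the SRF and actin list 5 rose (29.4%, beside 14.1% called higher over all genes) and none fell (13.4% over all genes). Calls in either direction were 29.4%, near the 27.5% over all genes.

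The remaining lists held few calls by number. Their shares stood on both sides of those over all genes, which were 14.1% higher and 13.4% lower. Of 17 immediate early genes 2 rose (11.8%), among them Atf3 (log2 1.01 ± 0.27, adjusted p = 0.00879), and 1 fell (5.88%), Junb (log2 -0.58 ± 0.20, adjusted p = 0.0325). Without ZT12 replicate 4, 4 were called higher. Without ZT15 replicate 1, 2 or 5 none was called lower, and without ZT15 replicate 3, 2 were. Of 20 acute phase genes 2 rose, both by calls that were lost in either cycle's ZT12 mice alone, and 1 was called without ZT12 replicate 1, 5, 9 or 12 or ZT15 replicate 3 or 6. Of 18 interferon-stimulated genes 4 fell (22.2%), led by Usp18 (log2 -0.69 ± 0.15, adjusted p = 0.00117), and 8 without ZT15 replicate 3. Among cold-inducible genes, Cirbp, an RNA-binding protein that rises when cells cool, fell from a median of 25.8 to 19 CPM (log2 -0.54 ± 0.13, adjusted p = 0.00345). Rbm3, which is known for the same response, had medians of 20.1 and 23.2 CPM and was not called.

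Several of the largest changes with groups apart lay outside the lists. Chka, choline kinase, ran from 13.2 to 28.7 CPM at ZT12 (median 18.3) and from 49.4 to 97.6 CPM at ZT15 (median 71.7), log2 2.03 ± 0.13 (adjusted p = 1.35e-09). The tight junction gene Cldn1 went from a median of 21.6 to 85.6 CPM (log2 1.87 ± 0.13, adjusted p = 2.86e-09). Lrfn3 (log2 1.96 ± 0.17) and Paxx, a DNA repair factor (log2 1.86 ± 0.18), rose as well. On the other side, Gpcpd1, which cleaves glycerophosphocholine, fell from a median of 351 to 86.1 CPM (log2 -1.86 ± 0.21, adjusted p = 1.23e-06). Slc7a2, a carrier of arginine and lysine, fell from 865 to 320.4 CPM (log2 -1.48 ± 0.17, adjusted p = 1.23e-06), and Syt1, Erbb4, Zbed5 and Ccdc171 fell by 1.29 to 1.64 on the log2 scale.

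Placed in the whole day, the step had a different position for different genes. All 77 liver libraries give a mean for each of 8 ZT groups. Of the 21 cytosolic chaperones called higher, 20 had their highest mean at ZT15. Hspa8 stood at 223 ± 27.9 CPM at ZT12 (SD, n = 12), 520.3 ± 78.9 at ZT15 (SD, n = 6), and between 146 and 275 CPM in every other group mean. Of the 17 ER members called higher, 8 had their highest mean at ZT15, 6 at ZT3 and 3 at ZT0, and 9 had their lowest at ZT12. Pck1 and Lpin1 had their highest means at ZT12, with 3758 and 516 CPM, and 8 of the 9 glucocorticoid-responsive genes that fell had theirs there too. The members counted here were picked by their call between ZT15 and ZT12. A highest or lowest mean at either time is therefore favoured by the choice and is no further support. Such shares over all called genes are not given here. Arntl went on rising to 40 CPM at ZT0.

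**Figure D4:**
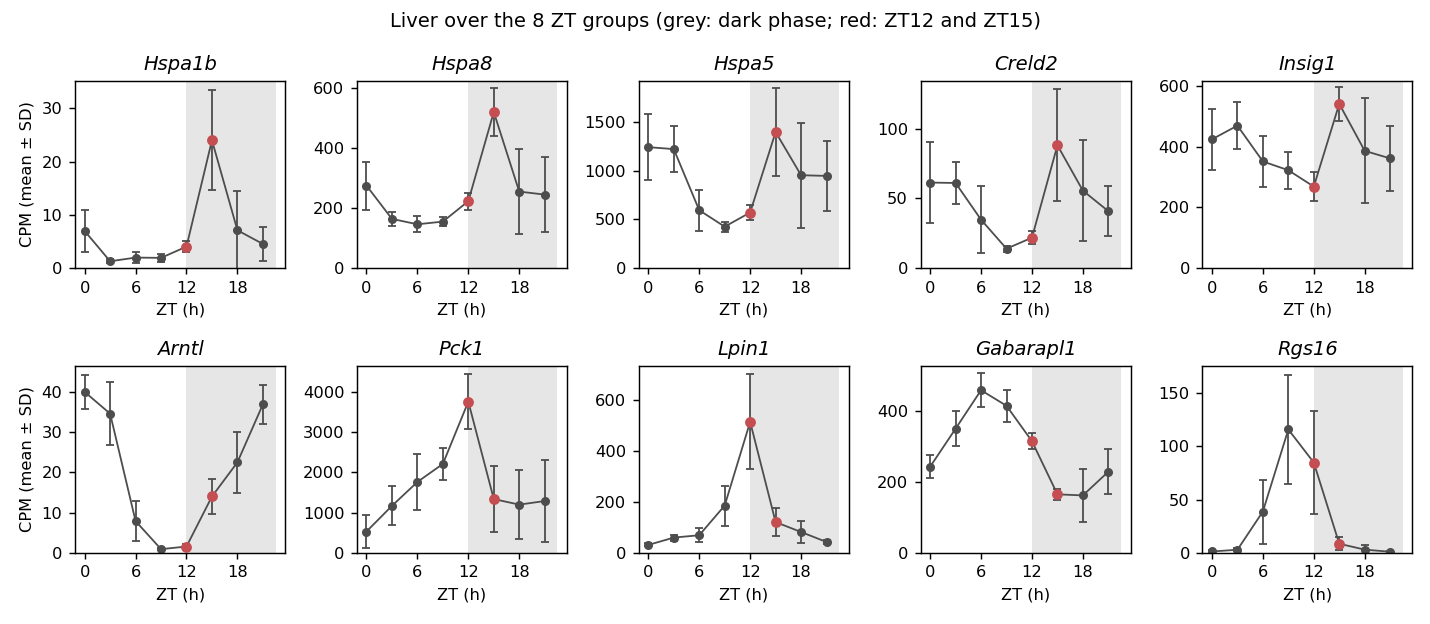
Mean CPM (± SD) of 10 genes in the 8 ZT groups of liver, with the dark phase shaded and ZT12 and ZT15 in red; an error bar that reaches below 0 is clipped at the axis. Hspa8 reaches 520.3 CPM at ZT15 alone, whereas Hspa5 is also at 1241 CPM at ZT0 and 1221 CPM at ZT3.

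The neighbouring steps were tested in a fit over ZT9, ZT12, ZT15 and ZT18, and each shares a group with the step described here. From ZT9 to ZT12, 2292 of 15549 genes were called (14.7%), and from ZT15 to ZT18, 324 (2.08%). Without ZT18 replicate 4 these counts were 3292 and 339. Heat shock chaperones had 10 of 25 members higher in the step before ZT12 (7.24% over all genes) and 5 of 25 lower in the step after ZT15 (0.688% over all genes). Hspa8 changed by 0.53 on the log2 scale from ZT9 to ZT12 (adjusted p = 9.82e-04) and by -0.91 from ZT15 to ZT18 (adjusted p = 6.65e-04). The glucocorticoid-responsive list had 11 of 21 members higher and none lower from ZT9 to ZT12. Cholesterol genes had 7 of 25 lower from ZT9 to ZT12 (7.51% over all genes) and none called from ZT15 to ZT18. Dbp and Nr1d1 had negative changes in all 3 steps, -0.77, -2.55 and -1.44 for Dbp and -1.55, -1.42 and -2.25 for Nr1d1.

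The same 18 mice gave cortex libraries, so the step could be compared between tissues with each mouse as its own block. The step differed between liver and cortex in 3447 of 19715 genes tested (17.5%), and in 1763 when the first cycle was used alone. Arntl had the largest difference of the genes named for a further rise in liver: it went from 1.56 ± 0.699 to 14 ± 4.45 CPM in liver and from 34.1 ± 2.46 to 43.1 ± 2.37 CPM in cortex (SD, n = 12 and n = 6), a difference of the log2 steps of 2.78 ± 0.21 (adjusted p = 6.89e-09). Chka had a log2 step of -0.05 in cortex and a difference of 2.04 ± 0.15 (adjusted p = 2.85e-09). In the other direction, Rgs16 had a cortex step of 0.21 and a difference of -3.55 ± 0.44 (adjusted p = 5.78e-06), Dbp a cortex step of -0.32 and a difference of -2.31 ± 0.16 (adjusted p = 2.85e-09), and Lpin1 0.03 and -2.17 ± 0.24 (adjusted p = 1.33e-06).

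Per2 and Nfil3 had cortex log2 steps of 0.76 and 0.60 beside 0.93 and 0.81 in liver. The cytosolic chaperones were called higher in cortex too, 20 of 25, beside 17.1% over all genes in cortex, with a median log2 fold change of 0.25. The step was higher in liver than in cortex in 13 of them (7.86% over all genes) and lower in none (9.63% over all genes). Hsp90aa1 had a cortex step of 0.15 and a difference of 1.66 ± 0.15 (adjusted p = 9.80e-08). In cortex 18 of 22 ER members were called higher, again beside 17.1%, with a median of 0.37. The step was higher in liver in 11 and lower in 2, Xbp1 and Herpud1, whose cortex steps were 0.64 and 0.45. Hspa5 had a cortex step of 0.90 and a difference of 0.37 ± 0.10 (adjusted p = 0.0113). In the autophagy list the step was lower in liver in 12 of 23 members (9.63% over all genes), and Ulk1 differed by -1.20. In cortex 9 of the 23 were called higher and none lower. Of 19 immediate early genes the step was lower in liver in 9 and higher in none. In cortex 10 of the 19 were called higher and none lower, with a median log2 fold change of 0.55. In liver 2 of 17 were called higher and 1 lower, with a median of 0.02.

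**Figure D5:**
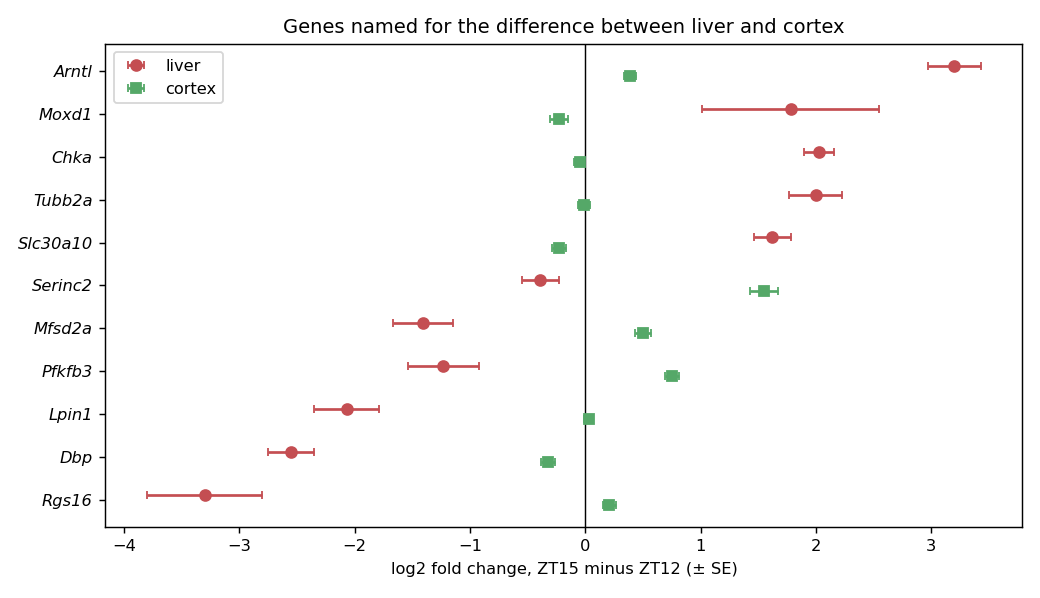
Log2 fold change from ZT12 to ZT15 with its standard error in liver (red circles) and cortex (green squares) of the same mice, for 11 genes named for a large difference between the tissues. Arntl is at 3.20 in liver and 0.39 in cortex, and Rgs16 at -3.30 and 0.21.

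The ZT12 mice of 12 h and of 36 h served as a check on the reference group. No gene of 14728 tested was called between them (0%) by edgeR's quasi-likelihood test, and 568 had an unadjusted p under 0.05. The genes with the smallest p were Socs3, a brake on cytokine signalling, with 12.2 ± 3.7 CPM at 12 h and 6.54 ± 1.74 at 36 h (SD, n = 6 each; adjusted p = 0.987), Cxcl1, Pcgf2 and Gas6. With 12 h or 36 h mice alone as the reference, 2717 and 2740 genes were called at ZT15, fewer than the 4142 with both.

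Markers of other cells that a piece of liver can hold were mostly level. In bulk tissue, fewer cells of a type and less RNA per cell cannot be told apart. None of the 9 Kupffer cell and macrophage markers, the 8 stellate cell and fibroblast markers or the 5 red blood cell markers was called, and 1 of 8 endothelial markers was. Of the cholangiocyte markers, Krt19 rose from a median of 1.04 to 2.19 CPM (log2 1.23 ± 0.19, adjusted p = 6.19e-05) and Sox9 from 3.37 to 6.27 CPM, while Epcam and Spp1 were not called, and the list summed to 41.7 to 91.7 CPM at ZT12 and 50.7 to 105 CPM at ZT15. One marker each was called lower in the pericentral hepatocyte, neutrophil and pancreatic acinar lists. Of 8 lymphocyte markers 2 fell, among them the B cell gene Cd79a, from a median of 0.54 to 0.315 CPM (adjusted p = 0.0343). Of the pancreatic acinar markers Ctrb1, Cpa1 and Pnlip were at 0 in all 18 libraries, and so were Ly6g for neutrophils and Lep for adipocytes. The periportal hepatocyte list summed to 6354 to 8419 CPM at ZT12 and 3867 to 5721 CPM at ZT15, with Pck1, Sds and Gls2 lower and 4 of 7 members not called. Among the RNA quality genes, the nuclear RNAs Neat1 (medians 286 and 616 CPM, log2 1.15 ± 0.15, adjusted p = 5.54e-06) and Malat1 (309 and 375 CPM, log2 0.41 ± 0.13, adjusted p = 0.0219) and mt-Cytb rose. The part of these markers in the other results was not tested.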

How the data were processed

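Messenger RNA of liver was compared between ZT15 (6 mice) and ZT12 (12 mice). The deposited table holds raw counts per Ensembl gene, made by the authors. Per the submitters' processing notes, the tools include HTSeq 0.10.0 and STAR 2.7.3a, with mm10 and GRCm38 listed as builds. Annotation release and strandedness: not given in the sources used here. FPKM values deposited by the authors were used only for levels per length. CPM are counts scaled by the library total. Symbols, positions and shared exonic bases come from GENCODE M21, which may not be the authors' release.

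Tests were run on the counts with edgeR 4.0.16 (filterByExpr by ZT, TMM, quasi-likelihood) with Benjamini-Hochberg adjustment over all genes tested, and a gene was called at an adjusted p under 0.05. The ± beside a log2 fold change is its standard error, taken as the change over the square root of F. DESeq2 1.42.0, other scalings, filters and sample sets were the alternatives. Leaving out 3 libraries together and the ER stress element were added after seeing the data. The scripts were tested on simulated data. Mice are separate per the labels' mouse codes, which also tie liver to cortex. Labels carry an unexplained L code, which was a covariate in one alternative.

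The members and the gene lists were chosen with earlier results of these data known. Genes were named by rule: the core clock, the 12 largest rises and 12 largest falls among called genes with no overlap and log2 CPM averaging 2 or more (numbered and clone models skipped), the 4 members of smallest adjusted p per other list (2 by level where none was called), 6 per direction for cortex and 4 between cycles. Other list members were named after their values were seen. Not every gene the rule took is described, and some are not reported here.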

Additional observations from a re-analysis of the deposited data

Results flagged for a closer look

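In 4 of the named genes 1 of the 6 ZT15 libraries stood far from the other 5, by Dixon's criterion on its gap. ZT15 replicate 3 was the highest in Tagln2, an actin-binding protein, with 23.8 CPM, and in Hp, the acute phase protein haptoglobin, with 2844 CPM. ZT15 replicate 4 was the highest in Ppp1r3g with 1.24 CPM and in Fmo5 with 2345 CPM. Among 120 genes looked at, chance alone puts about 1 in 20 groups past this limit.

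For 11 genes the step from ZT12 to ZT15 was flagged as different between liver and cortex of the same mice. They were chosen for large differences among genes that passed the test of the difference. That each passes it therefore follows from the choice and is no further support. On the log2 scale, liver minus cortex, the difference was 2.78 for Arntl, 2.58 for Moxd1, 2.04 for Chka, 2.02 for Tubb2a and 1.88 for Slc30a10. It was -3.55 for Rgs16, -2.31 for Dbp, -2.17 for Lpin1, -2.12 for Pfkfb3, -1.94 for Mfsd2a and -1.93 for Serinc2. Moxd1 was not called in liver alone, where the ZT12 mice ran from 0.0329 to 19.6 CPM and the ZT15 mice from 2.36 to 24.7 CPM. Serinc2 was not called in liver alone either, and its cortex step was 1.55.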

How the results depend on the processing

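The 4142 genes called between ZT15 and ZT12 became 2717 with first-cycle mice alone, 2740 with ZT12 mice of the second cycle alone and 2126 with a replicate block, and stayed between 3531 and 4363 when 1 library was left out. ZT12 and ZT15 libraries share replicate numbers 1 to 6 in their titles, but the numbers do not pair mice: same-numbered libraries had correlations of -0.42 to 0.36 in their deviations, and 1 of 6 ZT15 libraries correlated best with its own number. The genes at 1.5-fold or more stayed between 1018 and 1201 and the called list members between 179 and 217 when 1 library was left out. The tissue difference fell from 3447 genes to 1763 with the first cycle alone, where fewer mice enter. Between the ZT12 cycles the count was 0 in each of 12 fits that left out 1 mouse and with DESeq2 size factors. Of 111 named genes called, 90 were called under all 28 settings, 21 were lost under at least 1, and none reversed; 16 were lost under the replicate block. A change of a gene at 1 CPM rests on about 30 counts in a library.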

Other observations

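The 6 ZT15 mice differed among themselves in several liver genes that were not called or that were called with wide groups. Alas1, the first enzyme of haem synthesis, was at 1292, 275, 633, 317, 1707 and 439 CPM in replicates 1 to 6, against 490.1 to 1849.9 CPM at ZT12 (adjusted p = 0.266). Cyp3a11, a drug-metabolising P450, was at 1506, 789, 3387, 662, 2875 and 609 CPM, against 2256 to 3738 CPM at ZT12. For both genes replicates 1, 3 and 5 were the higher ones. Igfbp1 was at 3.13, 20, 9.97, 13, 1.73 and 5.3 CPM and Cdkn1a at 2.15, 8.02, 5.93, 10.3, 2.06 and 1.99 CPM, and in both replicates 2, 3 and 4 were the higher ones. Egr1, an immediate early gene, was at 44.3 CPM in replicate 6 and at 2.1 to 8.23 CPM in the other 5, and was not called.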
